A study of Mus musculus with 18 samples.

Results

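The difference between the 17-DMAG responses of 4T1R2 and 4T1 cells was computed for each gene as the log2 change after 17-DMAG in 4T1R2 minus the log2 change in 4T1. It uses 12 of the 18 RNA-seq libraries of the series, namely the 3 untreated and 3 treated libraries of each of the populations, which were chosen by their titles and not by any measured value. 4T1 is a mouse mammary carcinoma line from BALB/cfC3H mice, and 4T1R2 is a population grown from 4T1 cells that survived repeated rounds of 17-DMAG, so that it stands for 1 selected population and not for resistant cells in general. The label gives both as wild type, and the exposures used for the selection differ between the sample records and the series description. 17-DMAG is a benzoquinone inhibitor of the chaperone HSP90. The groups were untreated 4T1, 4T1 exposed to 1.5 µM 17-DMAG, untreated 4T1R2 and 4T1R2 exposed to the same dose. The sample records give an exposure of 48 h before RNA extraction and the series description gives 2 h, so the duration of the exposure is uncertain. A negative difference means that a gene rose less or fell more in 4T1R2 than in 4T1 on the log2 scale, and a positive difference the reverse. Where the untreated levels differ, the change in normalized counts can order the populations otherwise.

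HSP90 folds and stabilizes kinases, receptors and transcription factors. It also holds the heat shock factor HSF1 inactive, and HSP90 inhibitors are known to release HSF1, which then transcribes genes of HSP70, HSP40 and other chaperones. Protein damage and amino acid shortage are sensed by separate kinases that slow translation and raise the transcription factor ATF4, a program called the integrated stress response. NF-κB signaling depends on the IκB kinase complex, an HSP90 client, and drives genes of cytokines and of its own inhibitors, many of which have short-lived mRNAs.

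Total counts ran from 23354461 to 55094630 over the 12 libraries, and the ribosomal precursor Rn45s took 10.6% to 14.1% of them. Between replicates 1 and 2 of treated 4T1 the counts agreed within sampling noise, with a chi-square per gene of 1.1 against 2.12 to 2.22 in the 11 other replicate pairs of these groups. They were averaged and counted as 1 sample, so that treated 4T1 has n = 2 and each of the remaining groups n = 3. Nothing in the labels tells whether replicates were separate cultures beyond calling them biological replicas, so P-values measure the spread between these libraries, which may be technical. All 6 epithelial markers were detected in every group, with summed normalized counts of 76200 to 77600 in 4T1 and 59300 to 62800 in 4T1R2. Summed leukocyte markers stayed between 21.4 and 66.5. Summed fibroblast markers were 688 to 766 in untreated and 399 to 421 in treated 4T1, and 920 to 1040 and 799 to 909 in 4T1R2, with Lum at 0 throughout, and their part in the results was not tested. A normalized count is a count divided by its library's TMM-scaled size and set to the mean size.

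The quasi-likelihood test of edgeR was run on 13507 genes, and a gene is called changed here at a Benjamini-Hochberg adjusted P-value under 0.05 over all of them. The difference was negative for 1102 genes (8.16% of those tested) and positive for 1299 (9.62%). With each library scaled by its total count alone, 631 were negative and 2091 positive, so that the share of positive calls went from 54.1% to 76.8%, and the median difference over all genes went from −0.001 to 0.07, with that of the 4T1 response at −0.11. Where a fit below leaves out treated 4T1 replicate 1, that is the average of replicates 1 and 2. Leaving it or replicate 3 out leaves 1 treated 4T1 library, so lost calls in these fits may reflect the missing replication. Without treated 4T1 replicate 3 the median difference over all genes was 0.005. Most of the differences called in the main fit were small. They reached 1 on the log2 scale in 100 genes on the negative side (0.74%) and 71 on the positive side (0.526%).

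In 4T1 cells 2490 genes rose after 17-DMAG (18.4%) and 2423 fell (17.9%), while in 4T1R2 cells 835 rose (6.18%) and 588 fell (4.35%). Of the genes that rose in 4T1, 1029 (41.33%) had a called difference toward a weaker rise. Their median log2FC was 0.39 in 4T1 and 0.05 in 4T1R2, where 754 were not called, 265 were still called as rising and 10 were called as falling. Of the genes that fell in 4T1, 1212 (50.02%) fell less or not in 4T1R2, with median log2FC of −0.40 and −0.05. In 4T1R2, 976 of these were not called, 221 still fell and 15 rose. A further 363 genes rose in both populations and 197 fell in both with no difference called. For 1096 rises and 1014 falls called in 4T1 alone the difference itself was not called, so these genes cannot be placed on either side. The difference went toward a larger or sole response in 4T1R2 in 68 genes. Because the same 4T1 libraries entered the choice of genes and the difference, the medians above describe the calls and were not tested.

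**Figure D1:**
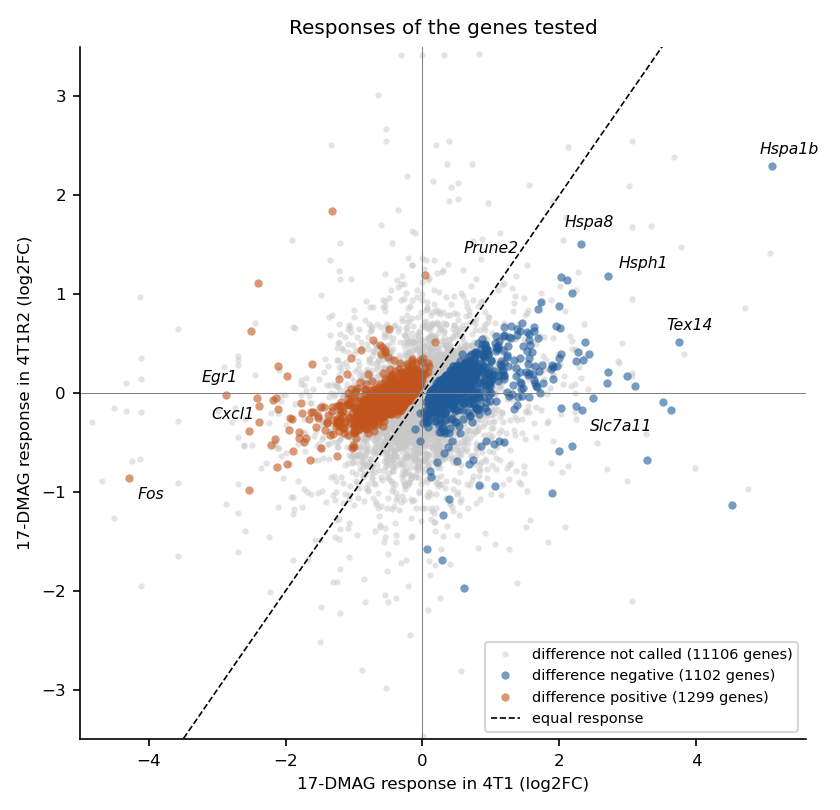
Log2FC after 17-DMAG in 4T1 (x axis) and in 4T1R2 (y axis) for the genes tested, with 1 point per gene, coloured by the call of the difference, where the dashed line marks equal responses, and 16 genes lie outside the axes. Called genes spread along the 4T1 axis and lie between that axis and the dashed line more often than beyond it, with Hspa1b, Hsph1 and Tex14 at the right and Fos and Egr1 at the left.

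Genes can also be chosen by their response in 4T1R1, another 17-DMAG-selected population whose libraries do not enter the difference, though they share its estimate of the spread. The names of the 4T1R1 libraries form a run apart from those of 4T1 and 4T1R2, and a technical difference between the runs cannot be told apart from the population. Of these, 1874 rose in 4T1R1 (13.9%) and 1938 fell (14.3%). The risers had a median log2FC of 0.18 in 4T1 and 0.11 in 4T1R2, with a negative difference in 482 and a positive one in 92. The fallers stood at −0.21 in 4T1 and −0.09 in 4T1R2, with a positive difference in 606 and a negative one in 85. Among the 179 genes that rose by at least 0.5 in 4T1R1, the medians were 0.73 in 4T1 and 0.35 in 4T1R2. For the 191 that fell by that much they were −0.74 and −0.28. Chosen in this way, too, the larger responses were those of 4T1.

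The classes of genes differed in how much of their response was left in 4T1R2, as the plot of list medians shows. Of the genes called as rising in 4T1, all 8 of the TRiC list and all 12 of the HSP90 and co-chaperone list were also called as rising in 4T1R2. The same held for 5 of 7 in the HSP70 list, 6 of 9 in the DNAJ list and 3 of 9 in the mitochondrial list. Among small HSPs, BAG and ubiquitin genes it held for 4 of 9. The rises of integrated stress response, proteasome and NRF2 target genes in 4T1 went with medians between 0.01 and 0.12 in 4T1R2. Of these rises, 8 of 16, 3 of 29 and 0 of 9 were also called in 4T1R2. The medians in 4T1R2 were 0.07 for the DNAJ list, 0.03 for small HSPs, BAG and ubiquitin genes and 0.01 for the mitochondrial list. Calls and medians thus do not order the lists alike. The falls of NF-κB cytokine and MAP kinase feedback genes went with medians of 0.01 and −0.01 in 4T1R2, where 2 of 9 and 3 of 11 falls were called. Other lists kept more of their falls. In 4T1R2 the call held for 5 of 5 in the AP-1 list, 5 of 6 mRNA decay factors and 7 of 8 YAP, TGF-β and ID targets. It held for 8 of 17 NF-κB subunit and feedback genes and 3 of 11 NF-κB surface and effector genes. The medians over all genes tested were 0.001 in 4T1 and −0.002 in 4T1R2, with −0.001 for the difference.

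**Figure D2:**
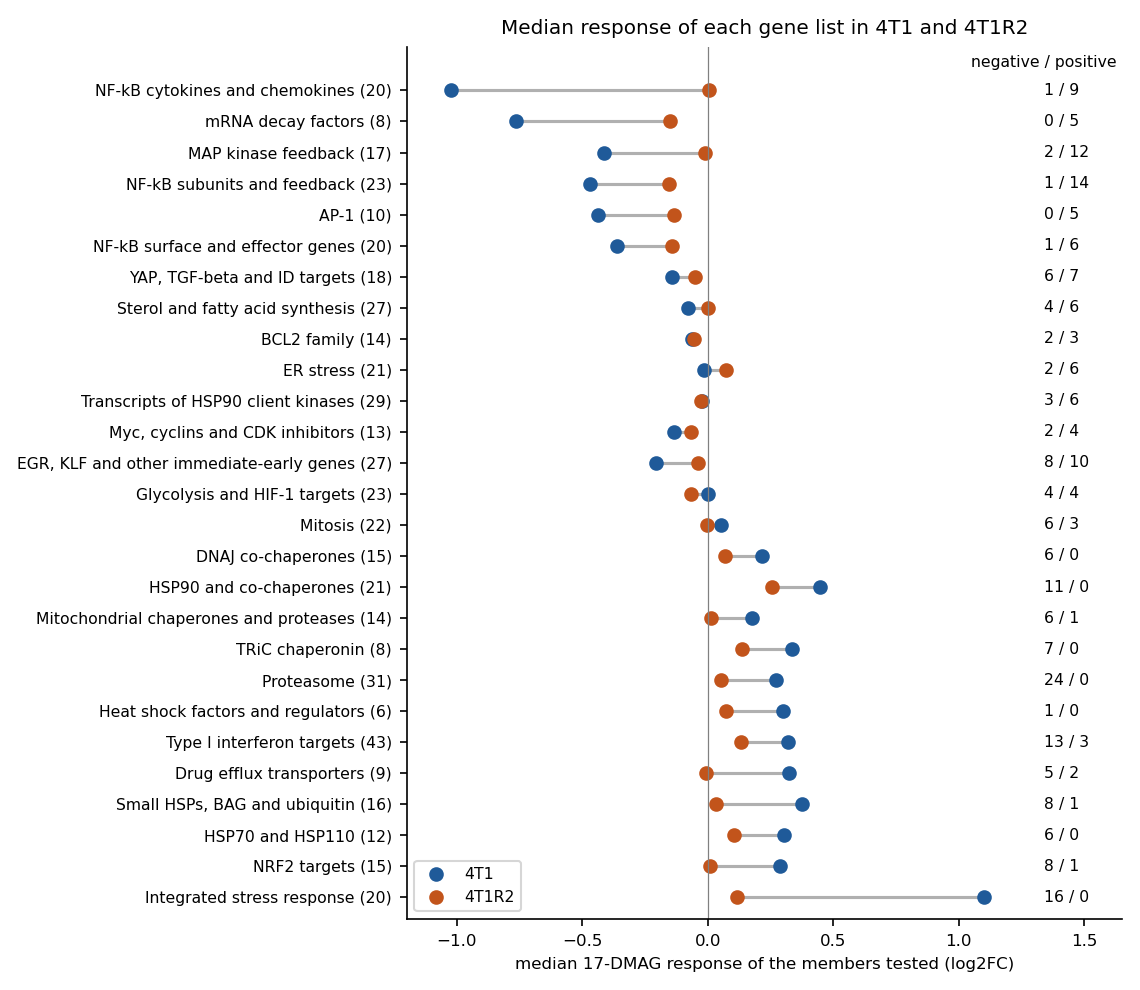
Median log2FC after 17-DMAG of the members tested of each of 27 gene lists in 4T1 (blue) and in 4T1R2 (orange), with the number of members tested in parentheses and the counts of members with a negative and a positive called difference at the right. The widest gaps are those of the integrated stress response (1.10 against 0.12) and of the NF-κB cytokines and chemokines (−1.02 against 0.01).

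The most inducible chaperone genes kept a rise in 4T1R2, at a lower level. Hspa1b, which encodes the inducible cytosolic HSP70 (chromosome 17, 34956436 to 34959238 in GRCm38), had 470.2, 483 and 518 normalized counts in untreated 4T1 and 17080 and 16750 after 17-DMAG. In 4T1R2 it had 649, 682 and 695 untreated and 3526, 3190 and 3191 after 17-DMAG. Each treated library thus stood above every untreated library of its population, and treated 4T1 above treated 4T1R2, with no overlap. The log2FC was 5.11 in 4T1 (34.5-fold) and 2.29 in 4T1R2 (4.90-fold), a difference of −2.81 (standard error 0.0717) with an adjusted P-value of 4.75e-29 in edgeR's test. The neighboring gene Hspa1a is almost the same in sequence, and since the sources used here do not tell how reads matching both were counted, the level of Hspa1b is uncertain to that extent. The difference of Hspa1a was −0.94 and was not called (adjusted P-value 0.498).

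Hsph1, an HSP110 nucleotide exchange factor for HSP70 (chromosome 5, 149614287 to 149636376), went from 11240, 10380 and 10830 normalized counts to 69750 and 72550 in 4T1. In 4T1R2 it went from 11500, 12140 and 12540 to 28430, 27530 and 26060. The untreated populations were close and the treated ones far apart, with log2FC of 2.72 and 1.18 and a difference of −1.54 (standard error 0.0464). Hspa8, the constitutive HSP70, rose by 2.32 and 1.51 (difference −0.81). Of 12 HSP70 and HSP110 genes tested, 7 rose in 4T1 and 5 in 4T1R2, and the difference was negative for 6. The median difference of the list was −0.29.

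Among HSP90 genes and their co-chaperones, 12 of 21 rose in 4T1 and 13 in 4T1R2, with a negative difference in 11 and median log2FC of 0.45 and 0.26. Hsp90aa1, the stress-inducible HSP90, had 55200, 52180 and 54400 normalized counts untreated and 211500 and 219800 treated in 4T1. Its counts in 4T1R2 were 70410, 68270 and 69750 untreated and 131900, 128900 and 122500 treated. It started higher and ended lower in 4T1R2 than in 4T1, with log2FC of 0.88 against 2.00 and a difference of −1.12 (standard error 0.037, adjusted P-value 2.43e-25). Hsp90ab1, the constitutive HSP90, rose by 0.96 in 4T1 and 0.44 in 4T1R2. The co-chaperones Ahsa2, related to the ATPase activator AHA1, and Chordc1 rose by 2.12 and 1.73 in 4T1 and by 1.15 and 0.92 in 4T1R2.

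Of 15 DNAJ (HSP40) genes, whose products deliver clients to HSP70, 9 rose in 4T1 and 7 in 4T1R2, and the difference was negative for 6. Dnajb1 rose by 2.19 in 4T1 and 1.01 in 4T1R2, Dnaja4 by 1.56 and 0.53, and Dnajb4 by 1.56 and 0.60. The 8 genes of the TRiC chaperonin, which folds actin and tubulin, rose in each population (median log2FC of 0.34 and 0.14), with a negative difference in 7 (4 with libraries scaled by their total counts alone). The exception was Tcp1, with a difference of −0.07 (95% interval −0.15 to 0.02). Among 14 mitochondrial chaperones and proteases, 9 rose and 2 fell in 4T1 and 4 rose in 4T1R2, where the chaperonin genes Hspd1 and Hspe1 rose by 0.53 and 0.57 against 1.11 and 1.27 in 4T1. Their difference was negative for 6 and positive for 1, Grpel2, a nucleotide exchange factor. Without treated 4T1 replicate 3, or without treated 4T1R2 replicate 2, 3 of these were negative, as with libraries scaled by their total counts.

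Of 16 small HSP, BAG and ubiquitin genes tested, 9 rose and 1 fell in 4T1, and 4 rose and 1 fell in 4T1R2, with a negative difference in 8 and a positive one in 1. The positive call was lost when treated or untreated 4T1 replicate 1 or 3, treated 4T1R2 replicate 2 or 3, or untreated 4T1R2 replicate 1 or 3 was left out. Bag3, a co-chaperone that directs HSP70 clients to autophagy, rose by 1.56 in 4T1 and 0.35 in 4T1R2. Zfand2a, a proteasome-associated protein induced by misfolded protein stress, had 1341, 1349 and 1515 normalized counts untreated and 5109 and 5404 treated in 4T1, but 1515, 1588 and 1536 untreated and 1917, 1874 and 1788 treated in 4T1R2. Its log2FC of 1.91 and 0.27 differed by −1.64 (standard error 0.0719). Hmox1, heme oxygenase 1, rose by 1.27 in 4T1, and its log2FC in 4T1R2 was −0.03 (adjusted P-value 0.86). Hsf1 and Hsf2, the heat shock factor genes, had differences of 0.08 and −0.06 (95% intervals −0.07 to 0.23 and −0.27 to 0.15), and of the 6 heat shock factors and regulators tested the difference was negative for 1, Ier5, which rose by 0.44 in 4T1.

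**Figure D3:**
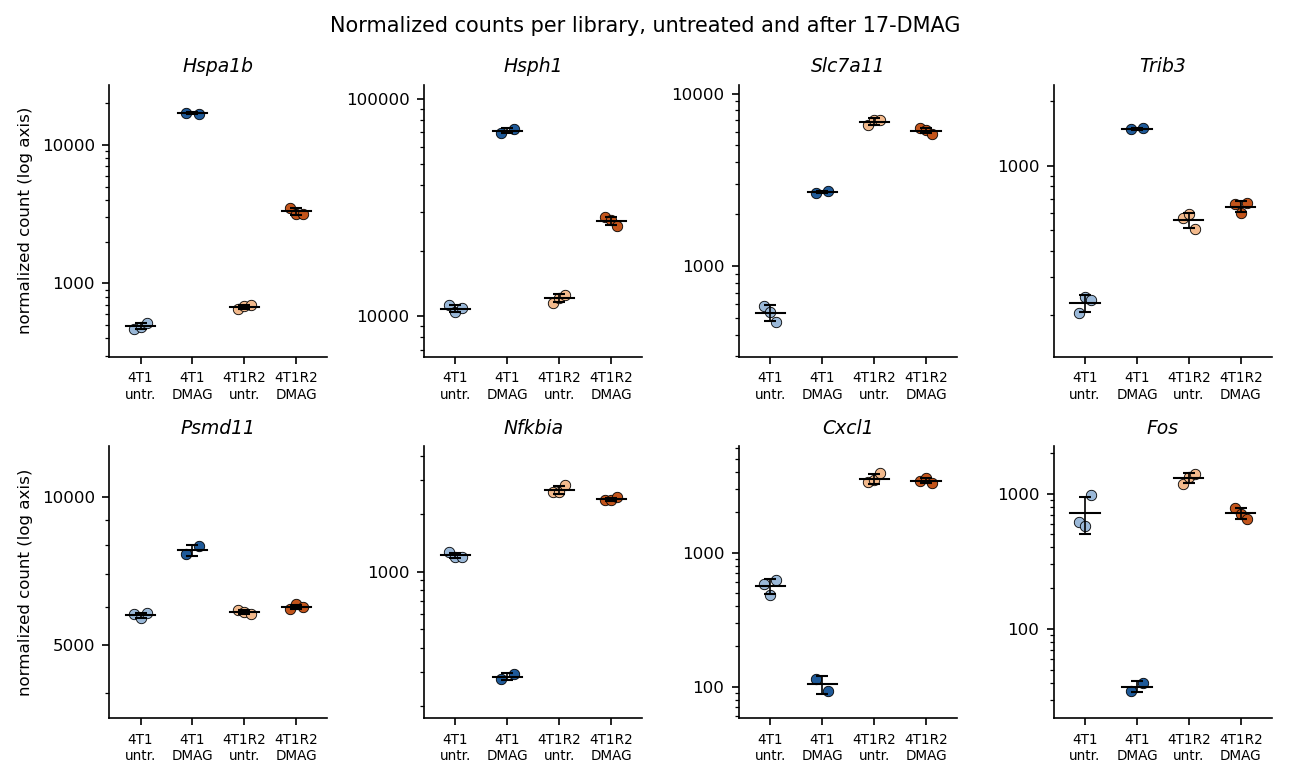
Normalized counts (log axis) of 8 genes in each library of untreated and 17-DMAG-treated 4T1 and 4T1R2, with 1 point per library, where the first treated 4T1 point is the average of replicates 1 and 2; bars show the mean ± SD. After 17-DMAG, Hspa1b and Hsph1 stand higher in 4T1 than in 4T1R2, while Slc7a11, Nfkbia, Cxcl1 and Fos stand higher in 4T1R2.

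Proteasome genes rose in 4T1 almost throughout and for the most part were not called in 4T1R2. Of 31 subunit genes tested, 29 rose in 4T1 and 3 in 4T1R2, with median log2FC of 0.27 and 0.05, and the difference was negative for 24. With libraries scaled by their total counts alone it was negative for 14. Psmd11, a lid subunit, had 5784, 5691 and 5811 normalized counts untreated and 7660 and 7944 treated in 4T1. In 4T1R2 it had 5906, 5858 and 5797 untreated and 5923, 6059 and 5979 treated. The treated 4T1 libraries stood apart from the other 3 groups, and the difference was −0.40 (standard error 0.0461), with an adjusted P-value of 5.67e-09 in edgeR's test. Psmd4, a ubiquitin receptor of the proteasome, and Psmc2, an ATPase subunit, had differences of −0.35 and −0.34. Each of these changes was under 0.5 on the log2 scale.

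Of 15 targets of NRF2, the factor that drives antioxidant and glutathione genes, 9 rose and 1 fell in 4T1, whereas 2 fell in 4T1R2 and the others were not called. The difference was negative for 8 and positive for 1, and the list medians were 0.29 and 0.01. Gclm, a subunit of the enzyme that limits glutathione synthesis, rose by 0.90 in 4T1 and had a log2FC of 0.12 in 4T1R2 (adjusted P-value 0.135). Srxn1, sulfiredoxin, and Osgin1 rose by 0.86 and 0.98 in 4T1 and stood at 0.10 and 0.09 in 4T1R2. Nqo1, a quinone reductase, had a difference of −0.30 that was not called (95% interval −0.58 to −0.03, adjusted P-value 0.131). Sqstm1, the autophagy receptor p62, went from 6081, 6282 and 6220 to 10780 and 11520 normalized counts in 4T1 and from 17760, 16460 and 16540 to 15740, 15350 and 15500 in 4T1R2. It was thus higher in every 4T1R2 library than in any 4T1 library, and the populations moved in opposite directions, by 0.85 and −0.12.

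**Figure D4:**
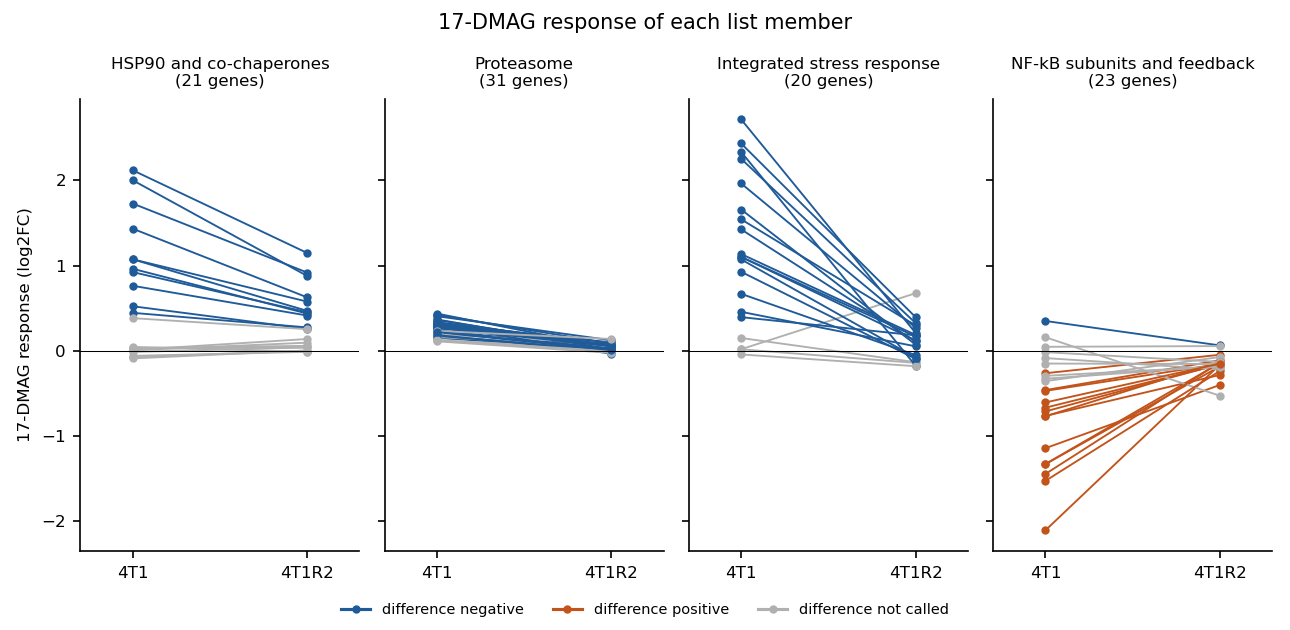
Log2FC after 17-DMAG of every member tested of 4 gene lists in 4T1 and 4T1R2, with the 2 values of a gene joined by a line coloured by the call of its difference. Lines of the HSP90 list converge toward a lower but positive response, with a median of 0.26 in 4T1R2. The medians in 4T1R2 were 0.05 for the proteasome, 0.12 for the integrated stress response and −0.15 for the NF-κB feedback list. Of the rises called in 4T1, 3 of 29 proteasome and 8 of 16 integrated stress response genes were still called. Of the NF-κB feedback falls, 8 of 17 were.

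The integrated stress response showed the largest median difference of the 27 lists, −0.999. Of 20 genes tested, 16 rose in 4T1, while 8 rose and 1 fell in 4T1R2, and the difference was negative for 16. Atf4, the central factor of this program (chromosome 15, 80255184 to 80257541), had 4836, 4827 and 4892 normalized counts untreated and 10300 and 10520 treated in 4T1, and 6261, 5987 and 6045 untreated and 6837, 6906 and 6829 treated in 4T1R2. Its difference was −0.93 (standard error 0.0451, adjusted P-value 6.3e-20). Trib3, a pseudokinase that is a target of ATF4 (chromosome 2, 152337422 to 152344032), went from 204, 243 and 235 to 1480 and 1501 in 4T1 and from 569, 592 and 508 to 665, 601 and 667 in 4T1R2. All treated 4T1R2 values lay above untreated 4T1 and below treated 4T1. Its log2FC was 2.71 in 4T1 and 0.21 in 4T1R2 (adjusted P-value 0.0626), a difference of −2.50.

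Slc7a11, the cystine importer xCT (chromosome 3, 49892526 to 50443614), differed in its level. In 4T1 it went from 587, 541 and 476 to 2663 and 2716 normalized counts, and in 4T1R2 from 6557, 7055 and 7045 to 6276, 6177 and 5855. Untreated 4T1R2 thus exceeded treated 4T1 in every library, and the responses of 2.33 and −0.17 were called in opposite directions, with a difference of −2.50 (standard error 0.0727). Chac1, which degrades glutathione, and Atf5, an ATF4-related factor, rose by 2.43 and 2.25 in 4T1 and by 0.40 and 0.33 in 4T1R2. Asns, asparagine synthetase, had a difference of −1.69, and Ddit3, which encodes CHOP, of −1.02. Atf3, Ddit4 and Ppp1r15a had differences of −0.16, −0.28 and −0.14, which were not called, although that of Ddit4 was called without treated 4T1 replicate 1 or untreated 4T1R2 replicate 3. Before treatment 18 of the 20 genes were higher in 4T1R2 than in 4T1, where 25.6% of all genes tested were higher and 26.9% lower. The median over the list was 0.68 untreated and −0.37 after 17-DMAG, on the log2 scale of 4T1R2 relative to 4T1.

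ATF4 with C/EBP partners is known to bind a composite element, and the letters TGATG, any base and AA in a row, read on both strands, were searched in the window from 250 bases before to 50 bases after each gene's start in RefSeq's table (GRCm38.p6). Of the 18 genes of this list with a window, 6 held a match (33.3%), against 4.51% of all 27025 genes in the table and 2.80% of the genes tested. The stretches around the matches that lie before the start are shown here to set the letters beside the responses. Slc7a11, Chac1, Asns and Nupr1 rose in 4T1, while the response of Atf3 was not called in either population. Capitals mark the match.
Slc7a11, chr3:50443614-50443719, minus strand: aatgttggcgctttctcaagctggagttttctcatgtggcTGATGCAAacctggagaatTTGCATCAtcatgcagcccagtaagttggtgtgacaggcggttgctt
Chac1, chr2:119351009-119351096, plus strand: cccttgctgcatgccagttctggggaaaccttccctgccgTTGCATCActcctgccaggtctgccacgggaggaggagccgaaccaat
Asns, chr6:7693210-7693272, minus strand: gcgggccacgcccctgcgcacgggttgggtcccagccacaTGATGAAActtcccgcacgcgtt
Nupr1, chr7:126625533-126625620, minus strand: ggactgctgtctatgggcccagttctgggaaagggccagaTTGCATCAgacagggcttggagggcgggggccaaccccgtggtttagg
Atf3, chr1:191183396-191183483, minus strand: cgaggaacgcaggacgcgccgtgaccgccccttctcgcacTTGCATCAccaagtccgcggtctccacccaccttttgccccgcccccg

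The differences of these 5 genes were −2.50 for Slc7a11, −2.04 for Chac1, −1.69 for Asns, −1.15 for Nupr1 and −0.16 for Atf3. The letters thus occur both in genes with a weaker rise or none in 4T1R2 and in 1 with no called response. Trib3, the sixth gene, had its match after the start. Atf4, Atf5 and Ddit3 held no match, and their differences were −0.93, −1.925 and −1.02. Ddit4 and Ppp1r15a, whose differences were not called, held none either. The heat shock element of 3 units was searched as GAA, TTC and GAA with any pair of bases between neighbors, in the same windows and on both strands. It was found in 1 of 10 HSP70 and HSP110 genes, 1 of 17 HSP90 and co-chaperone genes, 1 of 13 DNAJ genes and 2 of 10 mitochondrial genes. Among small HSPs, BAG and ubiquitin genes it was found in 0 of 11, and among TRiC genes in 0 of 7. The share over all genes in the table was 0.662%.

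Genes of the unfolded protein response of the endoplasmic reticulum did not move as a class. Of 21 tested, 6 rose and 7 fell in 4T1, while 4 rose and 1 fell in 4T1R2, and the difference was negative for 2 and positive for 6 (2 without treated 4T1 replicate 1). Hspa5, the lumenal HSP70 known as BiP, rose by 0.23 in 4T1 and 0.16 in 4T1R2 with a difference of −0.07 (95% interval −0.15 to 0.02). Herpud1, a component of protein degradation at this membrane, rose by 0.74 in 4T1 and had a log2FC of −0.11 in 4T1R2. Xbp1, a transcription factor of this response, fell by 0.89 in 4T1 and by 0.20 in 4T1R2.

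NF-κB target genes fell in 4T1, and fewer of them fell in 4T1R2. Of 23 genes of NF-κB subunits and feedback inhibitors, 17 fell and 1 rose in 4T1, and 8 fell in 4T1R2, with a positive difference in 14 and a negative one in 1, which was lost without treated or untreated 4T1 replicate 3. Nfkbia, which encodes the inhibitor IκBα (chromosome 12, 55489410 to 55492647), had 1262, 1194 and 1192 normalized counts untreated and 275 and 292 treated in 4T1. In 4T1R2 it had 2596, 2581 and 2815 untreated and 2344, 2358 and 2433 treated. The 4 groups did not overlap, and the log2FC of −2.10 and −0.16 differed by 1.94 (standard error 0.0803), with an adjusted P-value of 4.27e-22 in edgeR's test. Relb, an NF-κB subunit, and Bcl3, an IκB family coactivator, had differences of 1.29 and 1.31, and Tnfaip3, the feedback inhibitor A20, one of 0.51.

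Before treatment 15 of the 23 subunit and feedback genes were higher in 4T1R2 than in 4T1 and 1 was lower. Over all genes tested, 25.6% were higher and 26.9% lower. Of 20 cytokine and chemokine genes tested, 19 were higher in untreated 4T1R2 than in untreated 4T1, by a median of 2.24 on the log2 scale. After 17-DMAG 9 fell and 2 rose in 4T1, while 2 fell and 1 rose in 4T1R2, and the difference was positive for 9 and negative for 1. Cxcl1, a neutrophil chemokine (chromosome 5, 90891241 to 90893115), went from 587, 479.8 and 623 to 115 and 92.9 normalized counts in 4T1, and from 3353, 3458 and 3905 to 3421, 3588 and 3313 in 4T1R2. In 4T1R2 the treated and untreated ranges overlapped, in 4T1 they did not, and the difference was 2.37 (standard error 0.139). Csf3, which encodes the granulocyte growth factor G-CSF, fell by 1.77 in 4T1, and its log2FC of −0.10 in 4T1R2 was not called (adjusted P-value 0.0662 in edgeR's test). In mean normalized counts Csf3 changed by −397.5 in 4T1 and by −335.5 in 4T1R2. Ccl20 had counts of 0 to 14 in 4T1, and its difference of 2.10 was 6.36 without treated 4T1 replicate 1 and 1.33 without replicate 3, and its call was lost without treated 4T1 replicate 3, untreated 4T1 replicate 2 or untreated 4T1 replicate 3. Ccl2 was at or under 3 counts in all 4T1 libraries, so no loss of its response could be measured. Of the 20 members, 6 had a group at or under this floor.

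Of 20 other NF-κB targets that act at the cell surface or as effectors, 11 fell and 2 rose in 4T1, while 5 fell and 2 rose in 4T1R2, with a positive difference in 6 and a negative one in 1. Ptgs2, cyclooxygenase 2, had 16720, 16030 and 16210 normalized counts in untreated 4T1, where treatment left 10970 and 11570. Its 4T1R2 values overlapped, with 20020, 20400 and 21990 untreated and 20570, 21850 and 20650 treated, and the difference was 0.55.

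Immediate-early genes, which growth factor signals switch on within minutes, held the largest positive difference among the rule-chosen genes. Fos had 622, 576 and 977 normalized counts in untreated 4T1 and 35 and 40 after 17-DMAG, against 1177, 1338 and 1405 untreated and 789.5, 709 and 651 treated in 4T1R2. Treated and untreated libraries did not overlap in either population, and Fos fell by 4.29 in 4T1 and fell by 0.86 in 4T1R2 on the log2 scale, a difference of 3.42 (standard error 0.284, adjusted P-value 1.36e-12). Egr1, a zinc finger factor, had 622.5, 511 and 715 untreated and 80.9 and 88.6 treated in 4T1, whereas its 4T1R2 values of 305, 304 and 341.5 untreated and 315, 309.9 and 315 treated overlapped. The difference of Egr1 was 2.85 (standard error 0.182).

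In the AP-1 list, which holds Fos and Jun family genes, 5 of 10 fell and 1 rose in each population, and the difference was positive for 5. Junb fell by 1.76 in 4T1 and 0.21 in 4T1R2, and Fosb by 2.54 and 0.38. Of 27 EGR, KLF and other immediate-early genes, 14 fell and 8 rose in 4T1, while 8 fell and 1 rose in 4T1R2, with a positive difference in 10 and a negative one in 8. Klf2, a Krüppel-like factor, fell by 2.16 in 4T1 and had a log2FC of −0.46 in 4T1R2 (adjusted P-value 0.0631). In the list of mRNA decay factors, whose products shorten the life of such transcripts, 6 of 8 fell in 4T1 and 5 in 4T1R2, with a positive difference in 5. Btg2, which recruits a deadenylase, fell by 2.13 and 0.75, and Zfp36l2, which binds AU-rich elements, by 0.99 and 0.15. Of 17 feedback inhibitors of MAP kinase signaling, 11 fell and 3 rose in 4T1, while 3 fell and 2 rose in 4T1R2, and the difference was positive for 12 and negative for 2. The negative count was 1 without treated 4T1 replicate 3, untreated 4T1 replicate 1 or 3, treated 4T1R2 replicate 2 or untreated 4T1R2 replicate 1. Dusp6, a phosphatase of ERK, had 3816, 3368 and 3825 normalized counts untreated and 2181 and 2156 treated in 4T1, and 3755, 4114 and 4263 untreated and 4066, 4129 and 3928 treated in 4T1R2. The treated 4T1 libraries were the lowest for Dusp6, and the treated 4T1R2 libraries lay within the untreated range. Spry2, an inhibitor of receptor kinase signaling, had a difference of 0.97.

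For 9 lists the counts above give 1 direction of the difference. In the other direction 0 members passed edgeR's quasi-likelihood test, 0 passed DESeq2, and at an unadjusted P-value under 0.05 there was 1 in the HSP90 list and 1 in the AP-1 list. With libraries scaled by their total counts, edgeR called 1 positive difference in the HSP90 list. These lists are those of HSP70 and HSP110, HSP90, DNAJ, TRiC, heat shock factors, proteasome, integrated stress response, AP-1 and mRNA decay factors. The heat shock factor list had 1 called member of 6 tested, and a single call cannot show a direction of the list.

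Targets of type I interferon, which are antiviral genes, started from different levels. Of 43 tested, 23 rose and 3 fell in 4T1, while 7 rose and 1 fell in 4T1R2, with a negative difference in 13 and a positive one in 3. The negative count was 8 without treated 4T1 replicate 3. Before treatment 42 of the 43 were higher in 4T1R2 than in 4T1, against 25.6% of all genes tested. Rsad2, the antiviral enzyme viperin, went from 61.1, 59.8 and 66.3 to 287 and 370.5 normalized counts in 4T1, and from 513, 559.5 and 554 to 781, 825 and 713 in 4T1R2. All untreated 4T1R2 libraries stood above the treated 4T1 libraries, and the log2FC of 2.38 and 0.51 differed by −1.86 (standard error 0.179). Ifit1, a sensor of viral RNA caps, had a difference of −1.34. Its normalized counts went from 87.0, 79.1 and 101 to 322 and 403 in 4T1, and from 629, 579 and 572 to 948, 969 and 904 in 4T1R2. The mean rise of Ifit1 in counts was thus larger in 4T1R2, and its rise was smaller there on the log2 scale alone. The difference of Isg15, a ubiquitin-like modifier, was −0.27 and was not called.

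Among 9 drug efflux transporter genes, 5 rose and 2 fell in 4T1 and the median log2FC was 0.32 in 4T1 and −0.01 in 4T1R2, with a negative difference in 5 and a positive one in 2 (1 without treated 4T1 replicate 1). Abcb1a and Abcb1b encode the mouse P-glycoproteins. Abcb1b had 3362, 3403 and 3506 normalized counts untreated and 2983 and 2938 treated in 4T1, and 65190, 65440 and 66820 untreated and 65710, 66100 and 65550 treated in 4T1R2. It fell by 0.21 in 4T1 and was far higher in 4T1R2, where treated and untreated libraries overlapped. Abcb1a rose from 16 to 45 normalized counts on average in 4T1, against 821 and 795 in 4T1R2. These paralogs share sequence, and how reads that match both were counted is not given in the sources used here.

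The remaining lists moved in both directions. Transcripts of HSP90 client kinases, whose proteins rather than mRNAs depend on the chaperone, had 7 rises and 7 falls among 29 in 4T1 and 1 of each in 4T1R2. The difference was negative for 3 and positive for 6, with Erbb3, a receptor of the EGFR family, at 0.95. In the BCL2 family 4 of 14 rose and 5 fell in 4T1, while 1 rose and 2 fell in 4T1R2. Bmf, a death-promoting member, fell by 2.54 in 4T1 and 0.98 in 4T1R2, a difference that was not called without treated 4T1 replicate 1. In mean normalized counts Bmf changed by −47.1 in 4T1 and by −81.6 in 4T1R2, so the larger fall in counts was that of 4T1R2. Bmf reached the minimum of 100 normalized counts in untreated 4T1R2 alone, and its treated 4T1 values rest on 8 to 12 counts per library. Of 13 genes of Myc, cyclins and CDK inhibitors, 4 rose and 5 fell in 4T1, while 4 rose and 2 fell in 4T1R2. Myc rose by 0.50 in 4T1 and had a log2FC of 0.05 in 4T1R2 (adjusted P-value 0.358).

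Of 22 mitosis genes, 8 rose and 5 fell in 4T1, while 2 rose in 4T1R2, and the difference was negative for 6 and positive for 3. Without treated 4T1 replicate 3 it was negative for 3 and positive for 1, and with libraries scaled by their total counts negative for 4 and positive for 5. Cenpf, a kinetochore protein, rose by 0.67 and 0.29. Of 27 genes of sterol and fatty acid synthesis, 8 rose and 12 fell in 4T1, while 1 rose and 2 fell in 4T1R2. Among 23 genes of glycolysis and HIF-1 targets, 4 rose and 8 fell in 4T1, while 1 rose and 5 fell in 4T1R2. Vegfa, the endothelial growth factor, had a difference of −0.92 and Egln3, an oxygen-dependent hydroxylase of HIF, one of 0.84. In the list of YAP, TGF-β and ID targets, 8 of 18 rose and 8 fell in 4T1, while 5 rose and 8 fell in 4T1R2. Rhob, a small GTPase, fell by 1.80 and 0.40 there.

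Genes outside these lists were among the largest differences. Tex14, which is known from germ cell bridges, had 7.25, 5.34 and 9.75 normalized counts untreated and 86.5 and 119 treated in 4T1, with 14.4, 18.3 and 22.2 untreated and 30.6, 19.9 and 27.6 treated in 4T1R2. Its difference of −3.23 (standard error 0.575) was negative, and the treated and untreated 4T1R2 ranges overlapped. It reached the minimum of 100 normalized counts for named genes in treated 4T1 alone, where it was high. Its untreated 4T1 values rest on 5 to 10 counts per library. Gpt2, an alanine transaminase, had a difference of −2.01. Dll4, a Notch ligand, fell by 2.39 in 4T1 and had a log2FC of −0.13 in 4T1R2, a difference of 2.27.

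Of the 197 genes that rose by at least 1 on the log2 scale in 4T1, the difference was negative for 130, 80 were called as rising in 4T1R2 and 20 rose by at least 1 there. Of the 171 that fell by at least 1, the difference was positive for 101, 51 were called as falling in 4T1R2 and 6 fell by at least 1. Choosing genes for a large response in 4T1 favors smaller values in 4T1R2, so these counts are a description. Prune2 had 192, 157 and 169.7 normalized counts untreated and 484 and 509.8 treated in 4T1, and 84.4, 109.5 and 115 untreated and 243, 254 and 251 treated in 4T1R2. It rose with no overlap in each population, by 1.52 and 1.29, and the difference was −0.23 (95% interval −0.55 to 0.09). Lbh, a transcription cofactor, rose by 0.78 and 0.75 with a difference of −0.03 (95% interval −0.25 to 0.18). Serpinb2, an inhibitor of plasminogen activators, rose by 1.37 and 1.18 with a wide interval (−1.11 to 0.74), from counts of 3 or more in 4T1R2.

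On the falling side, Robo1, a guidance receptor, fell by 0.75 and 0.78 (difference −0.03, 95% interval −0.51 to 0.46). Id2, an inhibitor of basic helix-loop-helix factors, fell by 0.84 and 0.63, with a difference of 0.21 (95% interval −0.02 to 0.44) that was called without untreated 4T1R2 replicate 1. Over the 363 shared rises the 95% interval of the difference reached a median of 0.13 to either side, and over the 197 shared falls 0.17, against median log2FC in 4T1 of 0.23 and −0.32. These intervals allow that part of the response was lost in genes listed as shared.

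**Figure D5:**
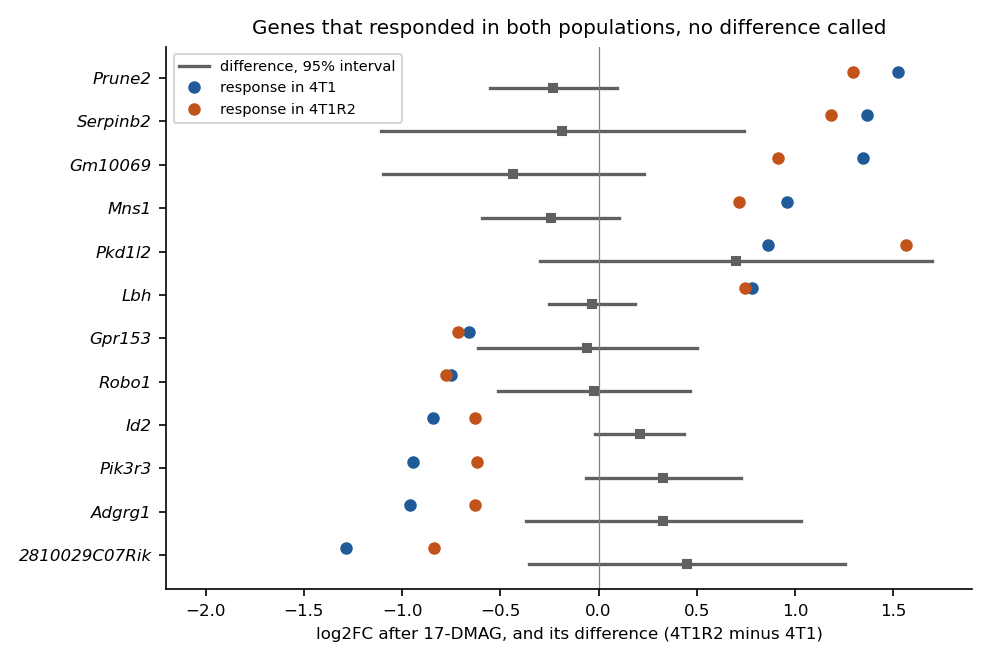
The 12 genes with the largest response shared by both populations with no called difference, showing the log2FC after 17-DMAG in 4T1 (blue) and 4T1R2 (orange) and the difference with its 95% interval (grey). Every interval includes 0, from the narrow one of Lbh to the wide ones of Serpinb2 and Pkd1l2.

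Of the 8 genes named for a response that was larger or present in 4T1R2 alone, 7 lost their call when a library was left out. Lpin1, a phosphatidate phosphatase of lipid synthesis, had 775, 795 and 775 normalized counts untreated and 825 and 865 treated in 4T1. In 4T1R2 it had 788, 863 and 767 untreated and 490.2, 473 and 433 treated. It fell in 4T1R2 alone, by 0.79 with no overlap, and its difference was −0.90 (standard error 0.107). Mcpt8, Spry1, Ccnb1ip1 and Pdgfb on the rising side, and 1700109K24Rik, E130012A19Rik and Spaca6 on the falling side, each lost the call of their difference when 1 library or another was left out. Spry1 was lost without treated 4T1 replicate 1 or 3, among other libraries, and Mcpt8, whose difference was 1.16, without untreated 4T1R2 replicate 1 or 2. In 4T1R2 Mcpt8 had 11.5, 7.8 and 19.9 normalized counts untreated and 26.9, 32.9 and 30.4 treated. It reached the minimum of 100 normalized counts in 4T1 alone, with 262, 362 and 287 untreated and 307 and 313 treated.

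In 25 genes the responses were called in opposite directions. Cyr61, a matricellular target of YAP, rose by 0.70 in 4T1 and fell by 0.22 in 4T1R2, with all 3 treated 4T1R2 libraries (5310, 5317 and 5282 normalized counts) below the untreated ones (5977, 6217 and 6402). Angptl4, a lipase inhibitor, fell by 0.55 in 4T1 and rose by 0.43 in 4T1R2. Ccnd1, cyclin D1, fell by 0.17 and rose by 0.13, from 31400, 30810 and 31760 to 34490, 34490 and 33910 normalized counts in 4T1R2.

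Set against 4T1R1, the response of 4T1R2 differed in far fewer genes, with a negative difference in 124 (0.918%) and a positive one in 164 (1.21%). The responses of 4T1R1 and 4T1R2 each have their own untreated libraries, while the 2 differences that include 4T1R2 share its libraries. Some chaperone genes rose less in 4T1R2 than in 4T1R1, with differences of −0.93 for Hspa1b, −0.57 for Hsph1 and −0.53 for Hsp90aa1. The difference between these populations was negative for 10 of 21 genes in the HSP90 list, 4 of 12 in the HSP70 list, 3 of 15 in the DNAJ list, 2 of 14 in the mitochondrial list and 2 of 16 among small HSPs, BAG and ubiquitin genes. Of the 8 TRiC genes 0 were called by edgeR's quasi-likelihood test, 2 by DESeq2, and 5 had an unadjusted P-value under 0.05. The NF-κB genes Nfkbia, Cxcl1 and Csf3 fell less in 4T1R2 than in 4T1R1, by 0.42, 0.83 and 0.93, with a positive difference in 7 of 20 cytokine genes. For the integrated stress response the difference between the selected populations was negative for 1 and positive for 1, and Atf4 and Trib3 had differences of −0.07 and −0.32 that were not called. Psmd11 had a difference of −0.10 there (adjusted P-value 0.285). In bulk RNA, a smaller response in every cell and a response in fewer cells cannot be told apart.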

How the data were processed

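Libraries were prepared with a dUTP kit after removal of ribosomal RNA. The submitters' processing notes name bcl2fastq 2.20, STAR and featureCounts of Subread 1.6.2, and the authors deposited whole-number counts per gene without normalization. Whether strand was used and how multiply matching reads were handled is not given in the sources used here. Counts were analysed with edgeR 4.0.16 (filterByExpr, TMM, glmQLFit, glmQLFTest) in R 4.3.3 over 6 groups and 17 libraries, with replicates 1 and 2 of treated 4T1 averaged. Standard errors were taken from the F statistic. The steps were tested on simulated data. Positions came from GENCODE vM21, which matched 23376 of 24421 symbols. Total counts of 23354461 to 55094630 set the counting precision.

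Members and lists were chosen with earlier results of these data known. Named genes were, in each direction, the 8 largest called differences, the 6 largest shared responses and the 4 largest responses of 4T1R2 alone or larger there, then the 3 largest called differences of each list, all with at least 100 normalized counts in a group, and 26 fixed genes. Atf4, Asns, Nupr1, Ddit4, Ppp1r15a, Tcp1, Hspa1a, Sqstm1, Angptl4, Ccnd1, Epha2, Hbegf, Lgals3 and Plau, as well as the promoters shown, were chosen after their values were seen. Alternatives were RLE or total-count scaling, other filters, DESeq2 1.42.0, only the 4T1 and 4T1R2 groups, Rn45s left out, 18 separate libraries, a replicate block, a minimum difference of 1, and each library left out.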

Additional observations from a re-analysis of the deposited data

Results flagged for a closer look

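Every called difference, 1102 negative and 1299 positive, is by its nature a difference between the populations under the same treatment. Among them, 12 named genes were singled out because their responses were called in opposite directions in 4T1 and 4T1R2, and the difference itself passed edgeR's quasi-likelihood test. Those that rose in 4T1 and fell in 4T1R2 had differences of −2.50 (Slc7a11), −0.97 (Sqstm1), −0.93 (Cyr61), −0.59 (Insig1), −0.47 (Ndrg1) and −0.26 (Lgals3). Those that fell in 4T1 and rose in 4T1R2 had differences of 0.98 (Angptl4), 0.50 (Hbegf), 0.47 (Grpel2), 0.39 (Plau), 0.30 (Ccnd1) and 0.29 (Epha2). Herpud1 was singled out because its difference was negative against 4T1 (−0.85) and positive against 4T1R1 (0.28).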

How the results depend on the processing

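With libraries scaled by their total counts alone, 631 differences were negative and 2091 positive, with 562 weaker rises, 139 shared rises, 24 rises larger or only in 4T1R2, 2027 weaker falls and 460 shared falls. List medians of the difference were then −0.10 for HSP90 and co-chaperones, −0.061 for DNAJ co-chaperones, −0.20 for Small HSPs, BAG and ubiquitin, −0.11 for Mitochondrial chaperones and proteases, −0.11 for TRiC chaperonin, 0.11 for ER stress, −0.15 for Proteasome, 0.42 for NF-κB subunits and feedback, 0.31 for NF-κB surface and effector genes, 0.41 for AP-1, 0.050 for EGR, KLF and other immediate-early genes, 0.47 for MAP kinase feedback, 0.20 for YAP, TGF-β and ID targets, 0.14 for BCL2 family, 0.089 for Myc, cyclins and CDK inhibitors, 0.013 for Mitosis, 0.16 for Sterol and fatty acid synthesis, 0.035 for Glycolysis and HIF-1 targets, −0.23 for NRF2 targets and 0.091 for Transcripts of HSP90 client kinases. The signs for EGR, KLF and other immediate-early genes, Mitosis, and Glycolysis and HIF-1 targets thus turned. Positive calls then went from 6 to 11 for sterol genes, 4 to 7 for glycolysis and HIF-1 targets (2 without treated 4T1 replicate 3) and 3 to 5 for the BCL2 family. Requiring a difference of at least 1 on the log2 scale left 100 negative and 71 positive differences, 91 weaker rises, 598 shared rises, 1 rise larger or only in 4T1R2, 64 weaker falls, 398 shared falls and 3 falls larger or only in 4T1R2. Medians without a filter were −0.31 for Small HSPs, BAG and ubiquitin, −0.056 for Heat shock factors and regulators, 0.021 for BCL2 family. With at least 10 counts in every library they were −0.042 for Heat shock factors and regulators, 0.53 for NF-κB cytokines and chemokines, 0.41 for NF-κB subunits and feedback, 0.21 for NF-κB surface and effector genes, 0.67 for mRNA decay factors, and with only the 4T1 and 4T1R2 groups −0.053 for Heat shock factors and regulators. With 18 separate libraries the NRF2 median was −0.26 without and −0.26 with a replicate block, and the counts were 1271 and 1498 without it and 1242 and 1475 with the block. No pairing by replicate number was seen, with 1 of 18 same-number pairs correlated above 0.1 (r from −0.36 to 0.15). Pairs of unlike number reached 0.393 and −0.385, and deviations from the mean of so few libraries depend on each other. The check therefore cannot exclude pairing. Leaving out each library in turn gave 668 to 1060 negative differences, 641 to 999 weaker rises, 19 to 56 rises larger or only in 4T1R2, 13 to 31 falls larger or only in 4T1R2, with the fewest negative differences and weaker rises without treated 4T1 replicate 3. List medians then ran from −0.22 to −0.14 for HSP90 and co-chaperones, −0.16 to −0.10 for DNAJ co-chaperones, −0.32 to −0.23 for Small HSPs, BAG and ubiquitin, −0.19 to −0.14 for Mitochondrial chaperones and proteases, −0.20 to −0.17 for TRiC chaperonin, −0.25 to −0.029 for Heat shock factors and regulators, 0.020 to 0.084 for ER stress, −0.24 to −0.19 for Proteasome, 0.32 to 0.41 for NF-κB subunits and feedback, 0.18 to 0.26 for NF-κB surface and effector genes, 0.27 to 0.51 for AP-1, −0.061 to 0.058 for EGR, KLF and other immediate-early genes, 0.44 to 0.65 for mRNA decay factors, 0.35 to 0.48 for MAP kinase feedback, 0.10 to 0.16 for YAP, TGF-β and ID targets, −0.41 to −0.17 for Type I interferon targets, −0.057 to 0.11 for BCL2 family, 0.014 to 0.058 for Myc, cyclins and CDK inhibitors, −0.065 to −0.033 for Mitosis, 0.027 to 0.11 for Sterol and fatty acid synthesis, −0.065 to −0.017 for Glycolysis and HIF-1 targets, −0.37 to −0.22 for NRF2 targets, −0.0046 to 0.049 for Transcripts of HSP90 client kinases. The cause of these shifts was not tested, and without treated 4T1 replicate 1 or 3 only 1 treated 4T1 library remained. Of 140 named genes, called ones kept their sign in every fit run, and 3 lost the call with total-count scaling, 1 with the block, and 3 to 11 with a library left out. With at least 10 counts in every library, 130 of the 140 were tested, so the others were not checked in that fit. Depth limits the genes with a group at or under 3 counts, whose fitted change is no bound.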
